A study of Drosophila melanogaster with 12 samples.

Results

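The genes described here are the Drosophila genes of DNA replication and S phase, from the proteins that mark and open replication origins to the cyclin that starts S phase. They were listed by name for their known role, with no threshold on their values, although earlier results of these data were known when the list was made. In all 49 were listed, 44 were found in the deposited table of 8802 genes, and all 44 passed the filter on low counts that left 8069 genes for testing. The other 5 (Mcm3, Orc1, Orc3, RPA2 and RPA3) are not analysed here. RNA was sequenced from enteroblasts of the adult fly midgut, in 12 libraries that fall into 4 groups of 3 biological replicates collected on different days. All flies were virgin females, 9 days old, that had spent the last 6 days at 29 °C. All carried the driver esg-Gal4, a GFP reporter under UAS control and the heat-sensitive Gal80 repressor under the tubulin promoter (tubGal80TS), and the control group came from a cross of this line to Canton-S, with no further transgene. The second group, labelled svb knockdown, also carried UAS-SvbRNAi, a hairpin against Shavenbaby, the transcription factor encoded by ovo. The SvbACT group carried UAS-SvbACT::GFP, a constitutive form of the protein used as its activator. The SvbREP group carried UAS-Svb3Kmut::GFP, a mutant form labelled as the constitutive repressor. Each library pooled the posterior midguts (regions R3 to R5) of a batch of females, and cells were sorted for strong GFP and large size. esg-Gal4 is active in intestinal stem cells as well as enteroblasts, so the sort rests on brightness and size.

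An enteroblast is the daughter of an intestinal stem cell that no longer divides and will become an absorptive enterocyte. On the way it enters the endocycle, a cell cycle of alternating G and S phases without mitosis, and becomes polyploid. Replication starts at origins bound by the origin recognition complex, where Cdc6 and Dup (the fly Cdt1) load the ring-shaped MCM helicase. Cyclin E with Cdk2 then triggers firing, and in flies E2f1 with Dp drives the transcription of CycE and many replication genes. Dacapo (dap), the fly inhibitor of the p21 and p27 family, binds and blocks Cyclin E with Cdk2. In endocycling fly cells Cyclin E activity must rise and fall for origins to be licensed again.

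Library totals ran from 2186283 to 7444253 counts, and 3 counts corresponded to between 0.379 and 1.40 CPM (counts scaled to a common library size). SvbREP replicate 3 was the shallowest library and had no counts for 1013 genes. Reads of ovo, the targeted gene, averaged 6.29 ± 8.76 CPM in control (SD, n = 3) against 32.4 ± 25.02 CPM in the knockdown-labelled libraries. They were thus not lower there, and that group is named only by its label. Reads of the hairpin may count to ovo, so these counts cannot show whether the gene's own RNA fell. The control libraries ranged from 0.279 to 16.3 CPM. In SvbACT ovo was at 2215 ± 337 CPM and in SvbREP at 1433 ± 320 CPM. Of 8 progenitor markers listed, 4 were analysed, with N at 799 ± 35.2, Sox21a at 323 ± 96.2, Snoo at 392.5 ± 46.8 and klu at 785.5 ± 119 CPM in control. Under the knockdown label klu was lower, at 401 ± 60.4 CPM (adjusted p = 0.00394, edgeR's quasi-likelihood test), while N (921.5 ± 18.9), Sox21a (358 ± 94.7) and Snoo (461 ± 47.1) did not pass the test. None of the 4 passed in SvbACT or SvbREP against control. The enterocyte list of 13 genes summed to 578 to 911 CPM in control, 331 to 426 under the knockdown label, 429 to 704 in SvbACT and 875 to 1056 in SvbREP. Myo31DF, an enterocyte myosin, carried most of that sum, at 550.4 ± 70.6 CPM in control and 785 ± 114 CPM in SvbREP. Under the knockdown label Myo31DF stood at 230, 267.5 and 226 CPM and was called lower. It was the 1 call there among 12 enterocyte genes tested (8.33%, beside 8.5% of all genes called and 6.66% called lower). Myo31DF and Myo61F were called lower in SvbACT than in SvbREP (16.7%, beside 7.21% of all genes called and 3.68% called lower). The sum does not stand for the list: in SvbREP 9 of the 12 enterocyte genes tested had fitted levels below control (median log2 fold change -0.48), and Myo31DF, Myo61F and Mal-A1 were above it, none past the threshold. The 12 enteroendocrine markers summed to 6.74 to 28.6 CPM in control, 37.0 to 98.5 under the knockdown label, 11.4 to 52.7 in SvbACT and 5.60 to 16.2 in SvbREP. Of these only NPF was called, higher in SvbACT than in control and in SvbREP, at 14.2, 4.515 and 0.379 CPM in SvbACT. The 9 visceral muscle markers summed to 31.4 to 79.7 CPM in control, 14.3 to 20.7 under the knockdown label, 30.65 to 40.7 in SvbACT and 17.0 to 28.5 in SvbREP. Among the 7 tested, Mhc was called lower in SvbREP than in control (14.3%, beside 2.08% of all genes called and 1.35% called lower). wupA was called higher in SvbACT than in SvbREP (14.3%, beside 7.21% of all genes called and 3.53% called higher). Fat body markers (3 genes) summed to 653 to 780.5 CPM in control, 96.4 to 215 under the knockdown label, 436 to 466 in SvbACT and 496 to 1027 in SvbREP, nearly all of it from the fatty acid synthase FASN1. FASN1 was lower under the knockdown label (log2 fold change -2.18 ± 0.29 SE, adjusted p = 9.37e-05), while apolpp, the other fat body gene tested, had a fitted change of 1.23 ± 1.30 from levels of at most 2.82 CPM (adjusted p = 0.703). Haemocyte markers (2 genes) stayed between 10.3 and 38.7 CPM and germline and follicle cell markers (3 genes) between 0 and 15.99 CPM over all 12 libraries. The part of these shifts in the replication gene values was not tested. In sorted bulk samples, fewer replicating cells and less replication RNA per cell cannot be told apart.

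The replication genes covered a wide span of expression. Per kilobase of exon and averaged over the 12 libraries, RnrS, the small subunit of ribonucleotide reductase, which makes the deoxynucleotides for DNA synthesis, was highest at 59.05 ± 13.5 CPM per kb (SD, n = 12). E2f1 (49.0 ± 10.95), Dp (40.75 ± 6.18), geminin (37.1 ± 11.3) and PCNA (35.7 ± 14.1) followed. The SD of each of these 5 over libraries was larger than its distance from the next in order. All genes were measured in the same libraries, so that SD does not decide the order within a library, which was not tested. At the other end lay Prim1, the catalytic primase subunit, at 2.84 ± 1.64 CPM per kb and Psf1 of the GINS complex at 2.86 ± 2.35. RnrS was thus 20.8 times Prim1. In CPM without the length scaling, Prim1 stood at 4.24, 6.14 and 2.23 in control, 3.135, 4.425 and 3.34 under the knockdown label, 6.62, 6.65 and 0.189 in SvbACT, and 5.92, 9.22 and 1.40 in SvbREP. Its lowest values, in SvbACT and SvbREP replicates 3, were at or below the level of 3 counts, and the groups overlapped. Counts were thin at that end: 13 of the 44 genes had under 10 counts in at least 1 library, and Psf1, Psf3 and Orc6 each had a library at 0.

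**Figure D1:**
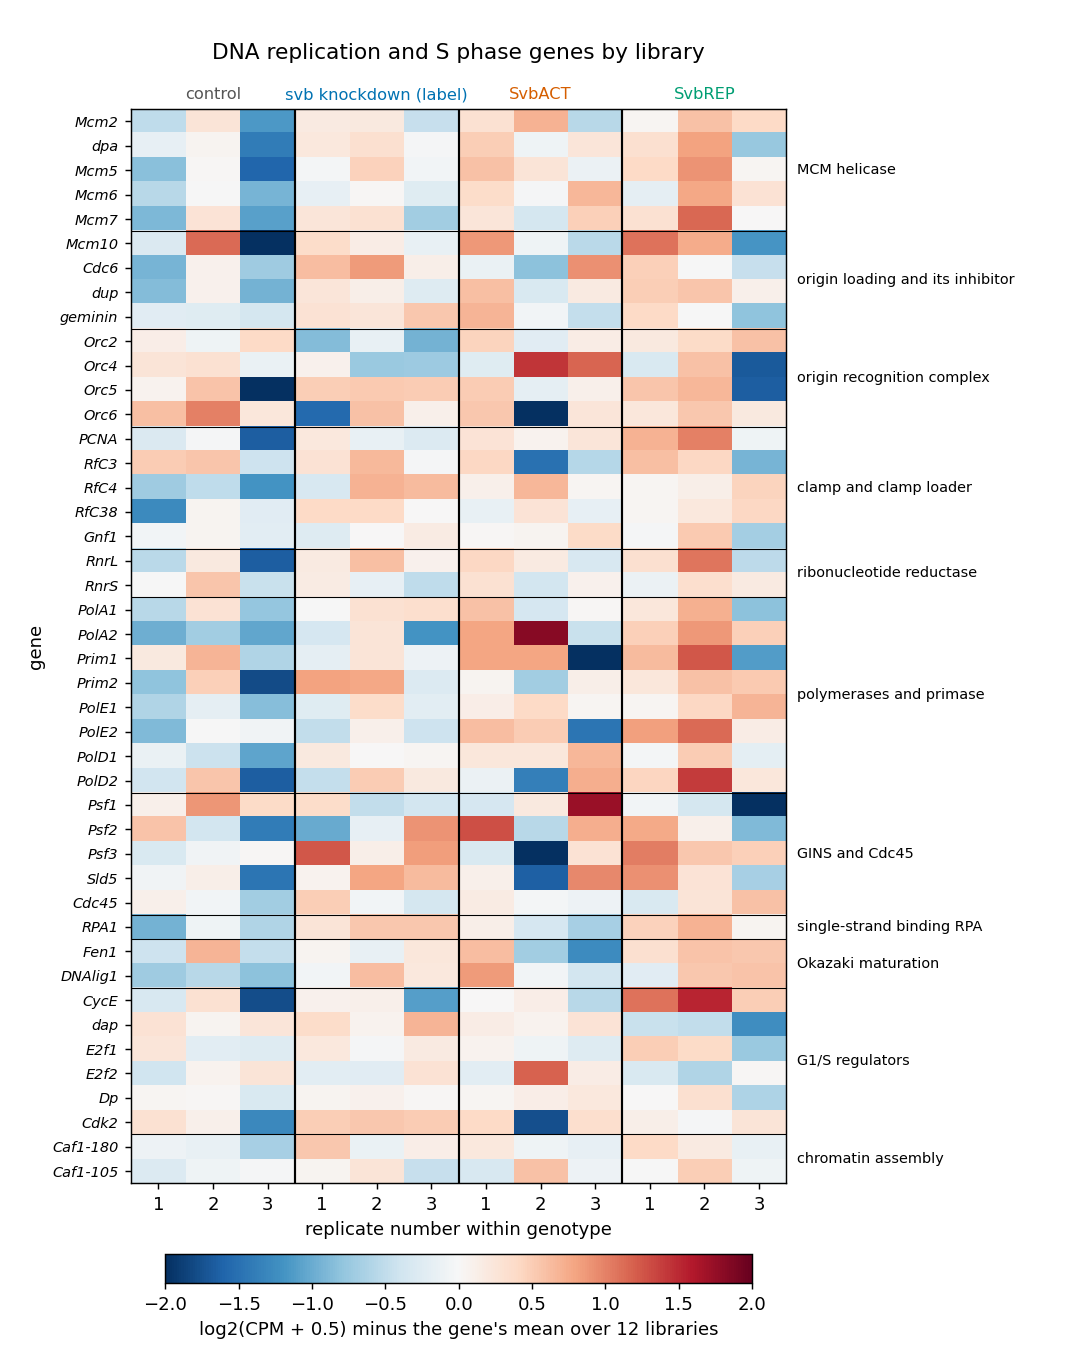
Level of each of the 44 replication genes in each of the 12 libraries, as log2 CPM minus the gene's mean over the libraries, with genes in rows ordered by role and libraries in columns by group. Control replicate 3 is the lowest column, with 20 of 44 genes at their lowest of the 12 libraries, and SvbREP replicate 2 holds the highest value for 15 genes.

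Control replicates 1 and 3 were low for most of the set, above the gene's median over the 12 libraries for 9 and 5 of 44 genes, while control replicate 2 was above it for 22. Summed over the 44 genes, the control libraries held 1365, 1543 and 1025 CPM (replicates 1 to 3), the libraries labelled svb knockdown 1667, 1664 and 1565, SvbACT 1772, 1538 and 1529, and SvbREP 1809, 2148 and 1305. The knockdown-labelled libraries all lay above the control libraries, whereas SvbACT and SvbREP overlapped control. Within groups, the control and SvbREP libraries were the most spread, with an SD of 263 and 424 CPM against 58.0 under the knockdown label and 138 in SvbACT.

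**Figure D2:**
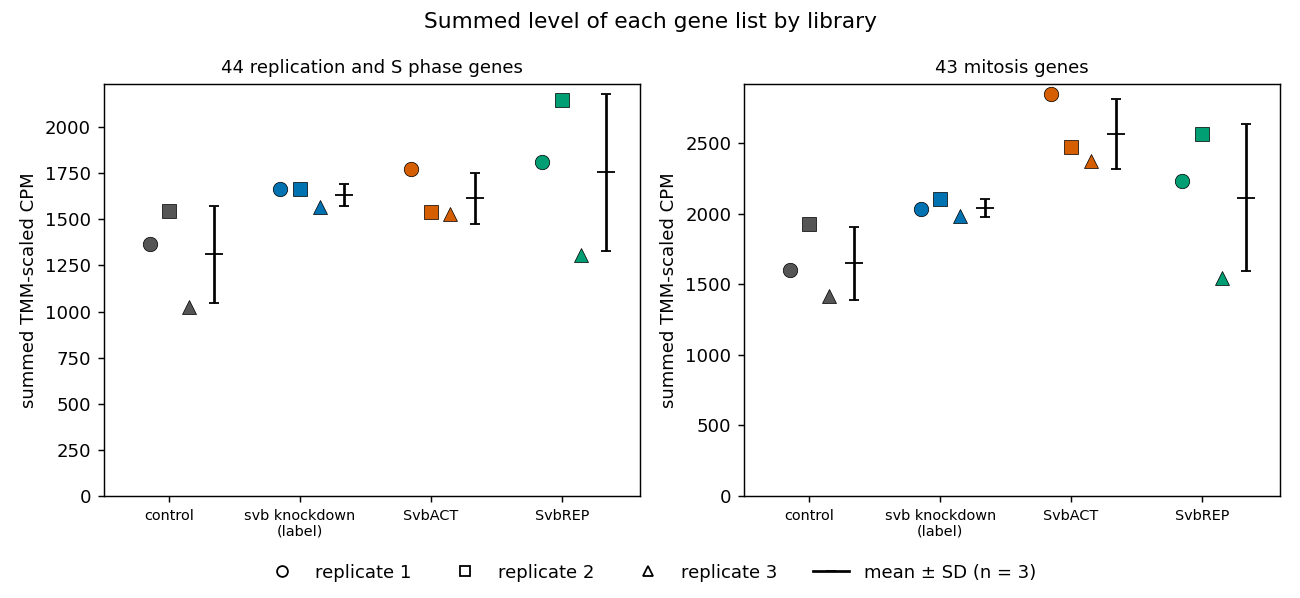
Summed CPM per library for the 44 replication genes and, for comparison, 43 mitosis genes. Points are libraries, marker shapes are replicates, and bars give the mean and SD of each group (n = 3). Replicate 3 is the lowest library of every group in both panels, for the replication genes in SvbACT by little (1529 against 1538 CPM).

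Most replication genes had a fitted level above control in each of the other groups, but few passed the test one by one. The median log2 fold change over the 44 genes was 0.40 under the knockdown label, where the median of all tested genes was 0.02. It was 0.38 in SvbACT, with all genes at -0.01, and 0.50 in SvbREP, with all genes at -0.02. The number of replication genes above 0 was 36 of 44, 36 of 44 and 38 of 44. These 3 comparisons share the same 3 control libraries, so they are not separate evidence. The medians moved with single control libraries: without control replicate 3 they were 0.20, 0.24 and 0.37, and without control replicate 2 they were 0.74, 0.82 and 0.97. Without SvbREP replicate 3 the SvbREP median was 0.79. Between SvbACT and SvbREP the median was -0.19 (all genes 0.01), with 31 of 44 genes lower in SvbACT, and it was 0.02 without the libraries numbered 2.

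**Figure D3:**
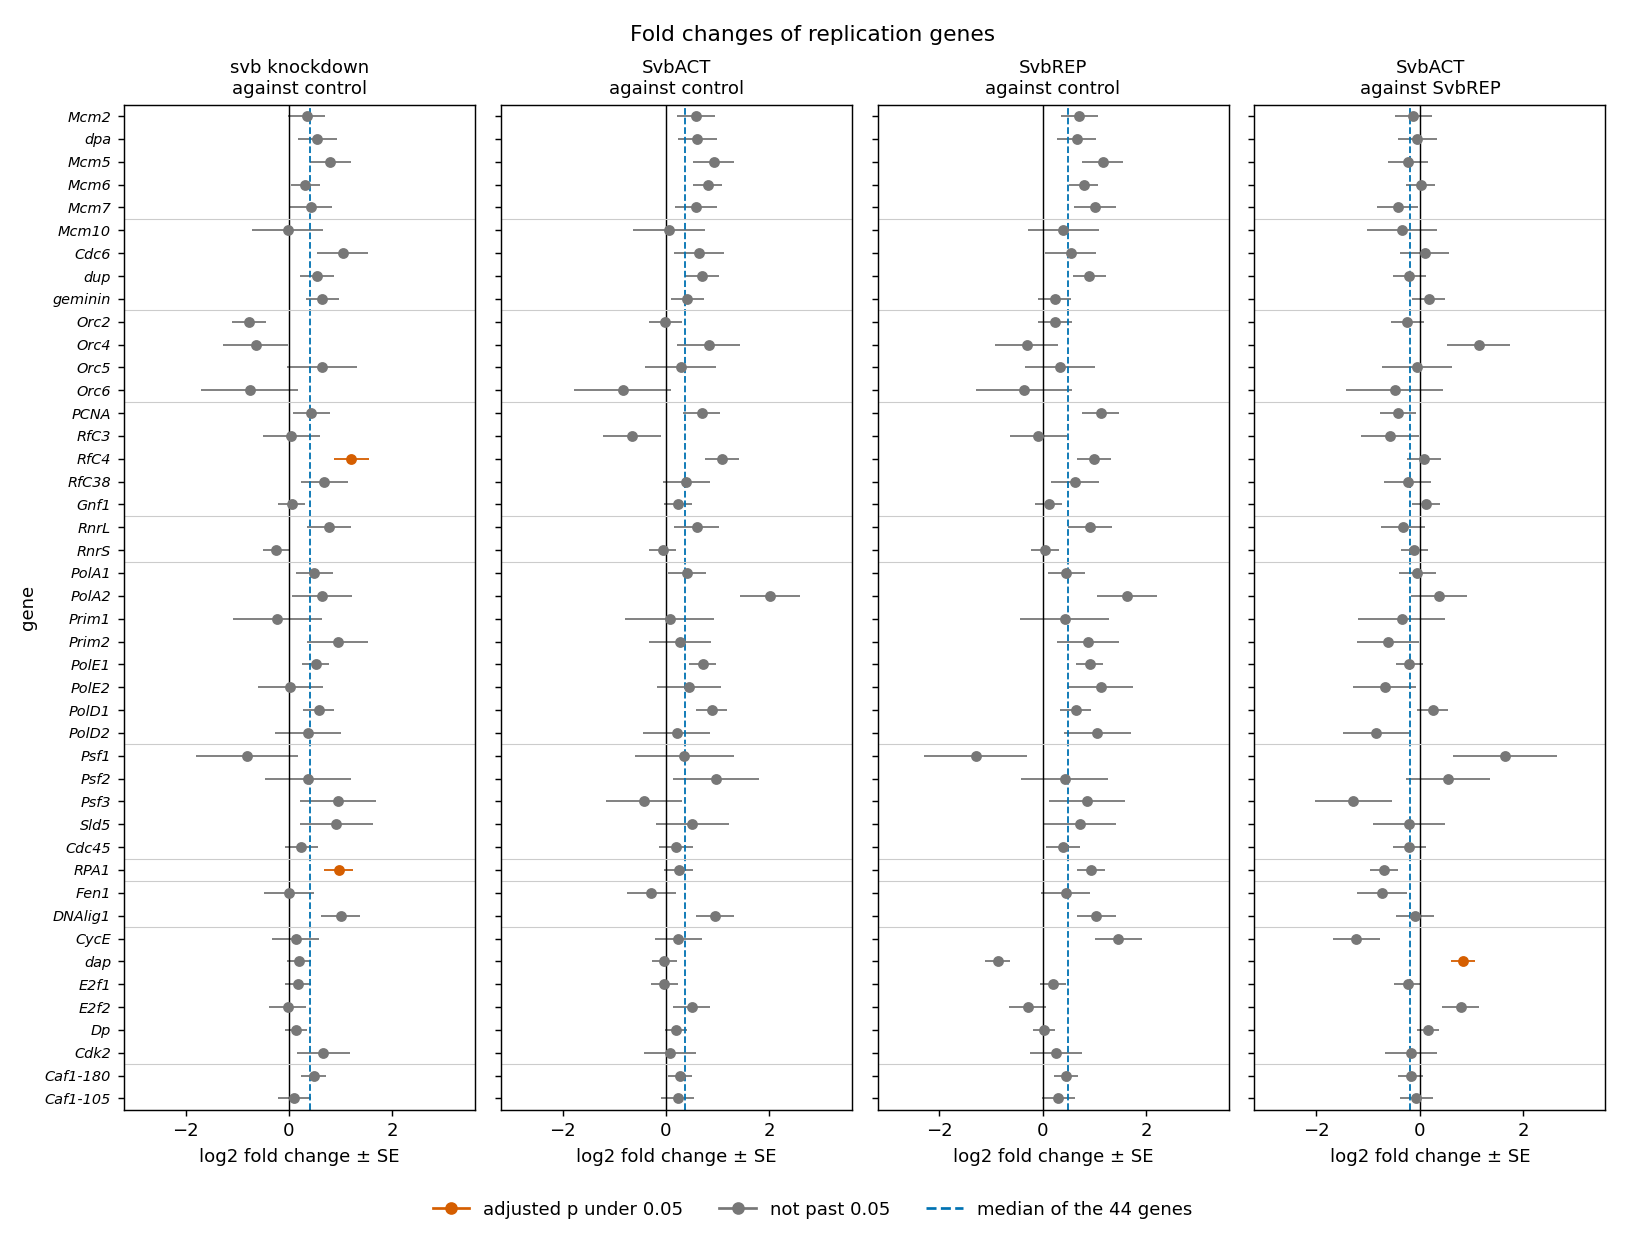
Log2 fold change of each of the 44 genes in each comparison, with orange points for an adjusted p under 0.05 (edgeR, adjusted over 8069 genes), a solid line at 0 and a dashed blue line at the median of the 44 genes. The medians against control are 0.40, 0.38 and 0.50, and the orange points are RfC4 and RPA1 under the knockdown label and dap between SvbACT and SvbREP. Bars are the SE of the fit.

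Among the regulators of S phase entry, CycE and dap set SvbREP apart in opposite directions. CycE encodes Cyclin E, and it stood at 59.7, 80.95 and 39.2 CPM in SvbREP. It stood at 22.2, 34.6 and 7.81 CPM in control, at 29.5, 29.8 and 12.7 CPM under the knockdown label, and at 27.99, 30.65 and 18.75 CPM in SvbACT. Every SvbREP library was above all 9 others, the nearest pair being 39.2 in SvbREP replicate 3 and 34.6 in control replicate 2. The other 3 groups overlapped each other. SvbREP was 2.76-fold above control in the fit (log2 fold change 1.47 ± 0.46 SE), which did not pass after adjustment (adjusted p = 0.141). With the replicate number as a block over all 12 libraries, CycE was called higher (log2 fold change 1.58, adjusted p = 0.00442). That block is shared by all 4 groups. The labels do not say that numbers pair the libraries, though same-number deviations of SvbREP and control correlated at 0.175, 0.108 and 0.256. Over all alternatives the adjusted p against control ran from 0.00442 to 0.605, and 3 of them called CycE. SvbACT against SvbREP gave -1.23 ± 0.45 (adjusted p = 0.136, and 0.0486 without control replicate 3). There the alternatives ran from 0.0134 to 0.444, with 3 calls.

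dap, whose product inhibits Cyclin E with Cdk2, showed the reverse. It stood at 41.6, 40.04 and 23.8 CPM in SvbREP. The other groups lay at 69.6, 58.9 and 67.0 CPM in control, 73.35, 59.98 and 90.9 CPM under the knockdown label, and 62.8, 59.6 and 68.9 CPM in SvbACT. Every SvbREP library was below all 9 others. dap was 1.79-fold higher in SvbACT than in SvbREP (log2 fold change 0.84 ± 0.24 SE, adjusted p = 0.0422, edgeR), the 1 call among the 44 genes in that comparison, where 7.21% of all tested genes were called (3.53% higher in SvbACT and 3.68% lower). SvbREP against control gave -0.87 ± 0.24 (adjusted p = 0.0762). The call against SvbACT was close to the threshold and was lost when any 1 of 9 libraries was left out (all but knockdown replicates 2 and 3 and SvbREP replicate 1), with adjusted p from 0.0583 to 0.124. A fit to the SvbACT and SvbREP libraries alone also lost it (adjusted p = 0.167).

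**Figure D4:**
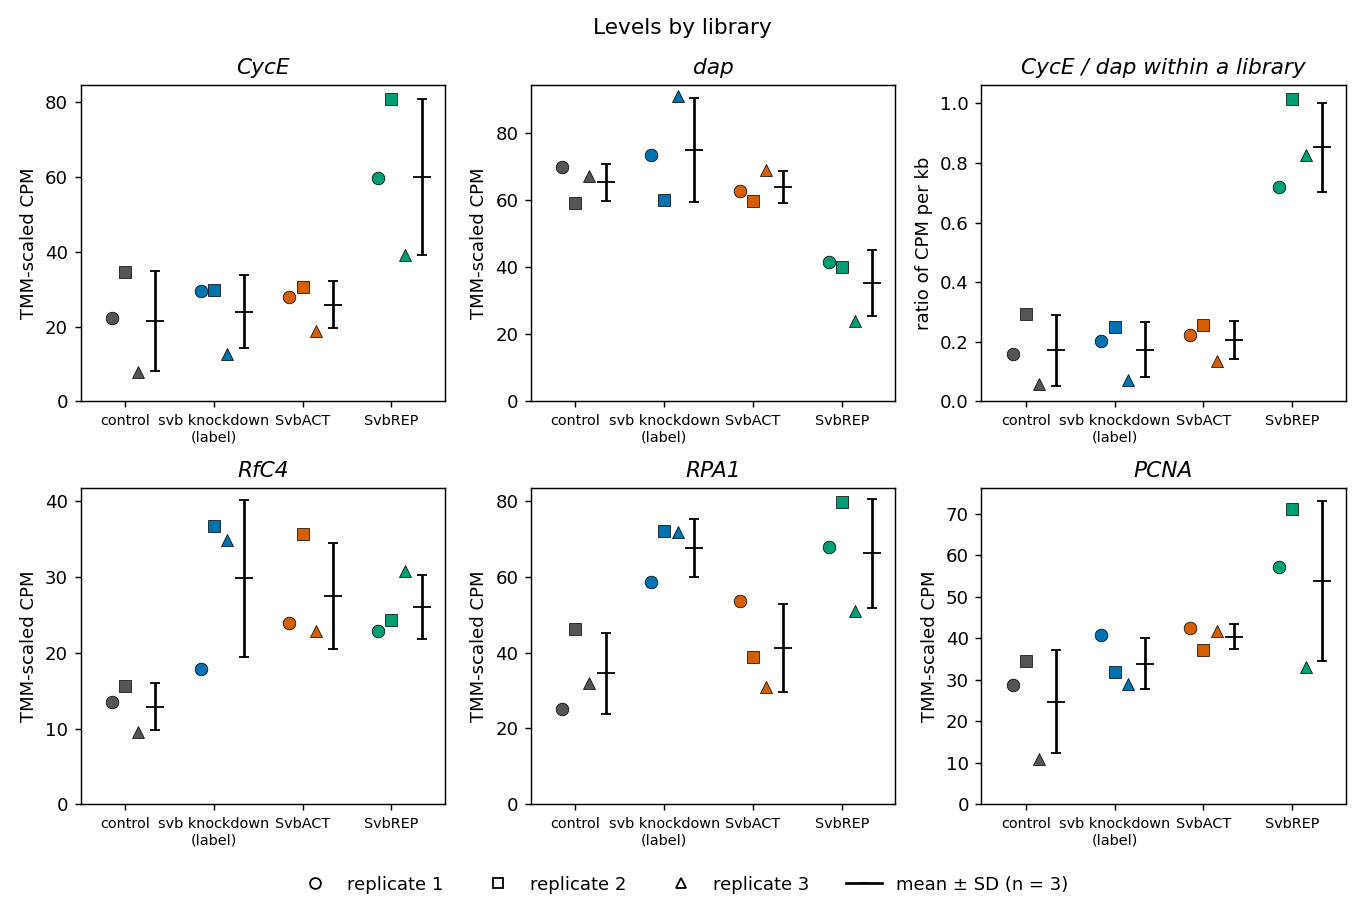
CPM per library of CycE, dap, RfC4, RPA1 and PCNA, and the ratio of CycE to dap per kilobase in each library, by group, with points for libraries and bars for the mean and SD (n = 3). The ratio is 0.7185 to 1.01 in the SvbREP libraries and 0.0585 to 0.295 in the other 9.

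The ratio of CycE to dap was formed within each library after these values were seen, from CPM per kb, and carries no test. It was 0.160, 0.295 and 0.0585 in control, 0.201, 0.249 and 0.0701 under the knockdown label, 0.2235, 0.258 and 0.136 in SvbACT, and 0.7185, 1.01 and 0.826 in SvbREP. That the SvbREP libraries stand apart in it follows from the values of the genes it was formed from, and adds nothing to them. The group means were 0.171 ± 0.1185 in control, 0.174 ± 0.0928 under the knockdown label, 0.206 ± 0.0626 in SvbACT and 0.853 ± 0.150 in SvbREP (SD, n = 3 each).

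The partners of these regulators did not pass the test in any of the 4 group comparisons. E2f1, the activating E2F, stood at 367, 266 and 259 CPM in control, 357, 303 and 348 under the knockdown label, 325, 291 and 257 in SvbACT, and 436, 402 and 183.5 in SvbREP. SvbREP held both the highest and the lowest of the 12 libraries, and all groups overlapped. E2f2, the repressive E2F, stood at 17.2, 24.02 and 27.35 CPM in control, 19.75, 19.5 and 27.96 under the knockdown label, 19.7, 52.3 and 25.4 in SvbACT, and 18.4, 14.9 and 23.35 in SvbREP. SvbACT replicate 2 stood alone above the rest. Dp, the partner of both, held 104 to 132 CPM in control and 132 to 148 CPM in SvbACT, with a log2 fold change of 0.20 ± 0.21 (adjusted p = 0.737). Cdk2, the kinase bound by Cyclin E, stood at 16.6, 17.2 and 16.7 CPM under the knockdown label, above all 9 other libraries (highest 15.6), but control replicate 3 at 4.465 and SvbACT replicate 2 at 3.09 CPM made the other groups wide (adjusted p = 0.552 against control). Of its exon bases 43.9% overlap CG17267 on the opposite strand, and reads of the 2 genes cannot be told apart where strand was not used.

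At the origins, the origin recognition complex did not lie mostly above control. Under the knockdown label 1 of its 4 measured subunits was above control and 3 below, with a median log2 fold change of -0.70. Orc2 stood at 20.0, 17.2 and 24.0 CPM in control and at 9.72, 16.4 and 9.21 CPM under the knockdown label, without overlap (log2 fold change -0.78 ± 0.33, adjusted p = 0.189). Orc4, Orc5 and Orc6 reached at most 15.9 CPM. Of the loading factors, Cdc6 stood at 5.24, 11.03 and 6.14 CPM in control, 16.3, 19.2 and 11.3 under the knockdown label, 9.44, 5.70 and 20.07 in SvbACT, and 14.7, 10.36 and 7.47 in SvbREP. The knockdown-labelled libraries lay just above control (log2 fold change 1.04 ± 0.49, adjusted p = 0.256), and the other groups overlapped it. dup stood at 15.97, 31.3 and 15.1 CPM in control, 35.1, 32.3 and 24.6 under the knockdown label, 45.04, 23.8 and 33.7 in SvbACT, and 41.9, 43.7 and 31.75 in SvbREP. Only SvbREP was wholly above control (0.91 ± 0.33, adjusted p = 0.211). geminin blocks Dup so that origins are not loaded again within an S phase. It stood at 32.2, 31.7 and 29.6 CPM in control, 46.1, 44.7 and 55.1 under the knockdown label, 60.9, 36.35 and 27.1 in SvbACT, and 49.8, 37.4 and 21.5 in SvbREP. The knockdown-labelled libraries lay wholly above control (0.64 ± 0.32, adjusted p = 0.294), while SvbACT and SvbREP fell on both sides of it.

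The MCM helicase subunits all had fitted levels above control in every group. The 5 measured subunits (Mcm2, dpa, which is fly Mcm4, Mcm5, Mcm6 and Mcm7) had a median log2 fold change of 0.43 under the knockdown label, 0.61 in SvbACT and 0.79 in SvbREP, and none passed the test. Mcm5 showed the largest difference of the 5, between control and SvbREP. It stood at 9.735, 18.01 and 5.58 CPM in control, 17.2, 24.75 and 17.2 under the knockdown label, 26.99, 21.4 and 16.3 in SvbACT, and 23.5, 33.5 and 18.2 in SvbREP. The SvbREP libraries lay only just above the highest control library (1.16 ± 0.40, adjusted p = 0.184). For Mcm7, 81.7% of exon bases overlap an antisense RNA, so its reads may come from either strand. Mcm10, a firing factor, ranged from 1.95 CPM in control replicate 3 to 22.9 CPM in control replicate 2. Psf1, a GINS subunit, stood at 1.75, 3.35 and 2.23 CPM in control, 2.19, 0.983 and 1.11 under the knockdown label, 1.16, 1.90 and 6.44 in SvbACT, and 1.52, 1.14 and 0 in SvbREP. Values this near the level of 3 counts carry little information on order. The other GINS subunits Psf2, Psf3 and Sld5 reached at most 16.9 CPM, and Cdc45, which joins MCM and GINS in the active helicase, lay between 14.8 and 36.9 CPM with no group set apart.

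The genes of the fork included the 2 that were called against control. Under the knockdown label 2 of the 44 genes passed the test (4.55%), both higher, where 8.5% of all 8069 genes passed, 1.85% higher and 6.66% lower. RfC4, a subunit of the clamp loader that opens the PCNA ring, stood at 17.9, 36.7 and 34.95 CPM there and at 13.5, 15.6 and 9.49 CPM in control. It was 2.31-fold higher (log2 fold change 1.21 ± 0.33 SE, adjusted p = 0.0291, edgeR). In SvbACT it stood at 24.0, 35.6 and 22.9 CPM and in SvbREP at 22.9, 24.4 and 30.8 CPM. All 9 libraries with a Svb hairpin or transgene thus lay above all 3 control libraries, a pattern whose share over all genes was not counted. The test against control did not pass in SvbACT (adjusted p = 0.0798) or SvbREP (adjusted p = 0.17).

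RPA1, the large subunit of the protein that coats single-stranded DNA, stood at 58.6, 71.95 and 71.8 CPM under the knockdown label and at 25.2, 46.2 and 32.1 CPM in control. It was 1.95-fold higher (log2 fold change 0.96 ± 0.28 SE, adjusted p = 0.0374, edgeR). In SvbREP it stood at 67.9, 79.6 and 50.9 CPM, also above every control library (0.94 ± 0.28, adjusted p = 0.0987), and in SvbACT at 53.65, 38.7 and 30.9 CPM, overlapping control. The calls of RfC4 and RPA1 were each lost without control replicate 1 (adjusted p 0.0816 and 0.162), control replicate 3 (0.137 and 0.122), knockdown replicate 2 (0.123 and 0.0964) or knockdown replicate 3 (0.111 and 0.0988). RPA1 and Mcm2 are divergent neighbours on chromosome 3R, with 518 bases between them in the BDGP6.54 annotation, and Mcm2, unlike RPA1, was not called. It stood at 25.5, 43.3 and 16.2 CPM in control, 41.1, 41.5 and 26.4 under the knockdown label, 45.04, 59.4 and 24.6 in SvbACT, and 37.2, 55.1 and 48.1 in SvbREP. All groups overlapped control (0.34 ± 0.36, adjusted p = 0.706, under the knockdown label).

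PCNA, the sliding clamp, stood at 28.7, 34.6 and 10.9 CPM in control. The levels were 40.75, 31.8 and 29.1 CPM under the knockdown label, 42.6, 37.1 and 41.7 CPM in SvbACT and 57.25, 71.2 and 33.2 CPM in SvbREP. Only the SvbACT libraries lay wholly above control among these 3 groups. In SvbREP the log2 fold change was 1.12 ± 0.36 (adjusted p = 0.139), and with the replicate block it was 1.15 (adjusted p = 0.0496). Leaving out SvbREP replicate 3 also gave a call (1.40, adjusted p = 0.0356), and no other alternative did.

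The polymerase and primase genes were above control in the fit for 7 of 8 members under the knockdown label and for 8 of 8 in both SvbACT and SvbREP, with medians of 0.50, 0.43 and 0.90, and none was called. PolE1, the catalytic subunit of the leading strand polymerase, stood at 32.95, 43.98 and 27.6 CPM in control, 42.3, 64.7 and 43.05 under the knockdown label, 55.1, 66.1 and 51.1 in SvbACT, and 51.6, 66.6 and 80.3 in SvbREP. All SvbACT and SvbREP libraries were above control, with the larger fitted difference in SvbREP (0.91 ± 0.26, adjusted p = 0.0873, and 0.93 with adjusted p = 0.0349 in the replicate block). Over all alternatives that adjusted p ran from 0.0264 to 0.391. PolA1, the catalytic subunit of polymerase alpha, which starts each new strand, stood at 30.95, 55.4 and 26.5 CPM in control, 45.45, 56.05 and 57.8 under the knockdown label, 68.7, 35.9 and 46.2 in SvbACT, and 53.45, 74.5 and 25.7 in SvbREP. Control replicate 2 overlapped every other group. PolA2, the second subunit of the same enzyme, stood at 3.245, 4.05 and 3.07 CPM in control and at 12.25, 25.4 and 4.92 CPM in SvbACT (2.01 ± 0.58, adjusted p = 0.0625). Its SvbACT libraries were above control but spread over a wide range. Without SvbACT replicate 3 the adjusted p was 0.0164, and without SvbREP replicate 3 it was 0.0471. Leaving out any other single library gave no call. PolA2 stood at 9.72, 13.0 and 9.81 CPM in SvbREP, also wholly above control (1.64 ± 0.58, adjusted p = 0.202). SvbACT against SvbREP gave 0.38 ± 0.55 for it (adjusted p = 0.787). Under the knockdown label it stood at 5.33, 8.36 and 2.70 CPM, overlapping control. Fen1, the nuclease that trims Okazaki fragments, stood at 8.24, 18.01 and 7.81 CPM in control, 11.6, 9.997 and 13.03 under the knockdown label, 17.2, 6.65 and 4.355 in SvbACT, and 13.97, 16.7 and 16.3 in SvbREP, with control overlapping all of them. DNAlig1, the ligase that seals Okazaki fragments, shared with RfC4 the property that every control library (9.21 to 11.2 CPM) lay below the other 9 (from 12.7 CPM). Its log2 fold changes were 1.00 ± 0.38, 0.95 ± 0.38 and 1.04 ± 0.38 under the knockdown label, in SvbACT and in SvbREP. None passed the threshold when all 12 libraries were fitted. A fit to the control and knockdown-labelled libraries alone called DNAlig1 higher (1.00, adjusted p = 0.0388).

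Ribonucleotide reductase and chromatin assembly gave no call against control in the fit without the replicate block. RnrL, the large subunit, stood at 41.4, 69.5 and 18.98 CPM in control, 68.96, 91.8 and 64.2 under the knockdown label, 80.98, 68.7 and 48.5 in SvbACT, and 75.8, 128 and 42.03 in SvbREP. Each group overlapped control through control replicate 2. With the replicate block RnrL was called higher under the knockdown label (0.94, adjusted p = 0.0342). RnrS stood at 90.9, 135 and 67.5 CPM in control, 102.5, 81.95 and 64.7 under the knockdown label, 113, 71.05 and 97.9 in SvbACT, and 84.3, 115.6 and 104 in SvbREP, with no group apart. Caf1-180, a subunit of the complex that deposits histones behind the fork, stood at 64.15, 62.0 and 43.25 CPM in control, 99.7, 62.6 and 75.15 under the knockdown label, 79.5, 64.9 and 60.97 in SvbACT, and 90.96, 77.5 and 62.1 in SvbREP. The groups overlapped, and with its partner Caf1-105 the median log2 fold changes against control were 0.29, 0.25 and 0.375.

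Over the set, no replication gene was called in SvbACT against control (2 by DESeq2). Of all genes 4.46% were called there, 1.91% higher and 2.55% lower. At an unadjusted p under 0.05 lay 8 of the 44 genes, beside 1372 of all 8069 genes. The 2 that DESeq2 called were PolA2 and RfC4. None was called in SvbREP against control either (4 by DESeq2), where 2.08% of all genes were called, 0.731% higher and 1.35% lower. There 13 of the 44 were at an unadjusted p under 0.05, beside 1043 of all 8069 genes. DESeq2 called CycE, PolE1 and RPA1 higher and dap lower. With the replicate block 3 genes passed (CycE, PCNA and PolE1), and without SvbREP replicate 3, 2 passed (PCNA, adjusted p = 0.0356, and RPA1, adjusted p = 0.0332).

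Groups whose 3 replicates did not overlap were counted as a second description. Under the knockdown label 8 of 44 genes lay wholly above control, where 13.9% of all genes did, and 1, Orc2, lay wholly below (17.2% of all genes). In SvbACT 7 lay above (10.2% of all genes) and 0 below (13%). In SvbREP 10 lay above (7.18% of all genes) and 2, Psf1 and dap, below (11.3%). Between SvbACT and SvbREP, CycE, Prim2 and Psf3 were wholly lower in SvbACT (10.1% of all genes) and dap wholly higher (10.7%). CycE, dap, RfC4, DNAlig1 and Cdk2 each had a group apart from all 9 other libraries. The share of all genes with such a group was not counted, so these cases are description only.

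That libraries numbered 3 ran low for proliferation genes had been noted in these data before, so the values by replicate number describe that pattern and do not test it independently. They were also uneven between groups. Libraries numbered 3 were lowest of their group for 34 of 44 genes in control (34.2% of all tested genes), 20 of 44 under the knockdown label (33.3%), 18 of 44 in SvbACT (32.6%) and 30 of 44 in SvbREP (44.2%). In SvbACT it was replicate 2 that was lowest most often, for 20 genes. Fitted across the 4 groups with genotype as a covariate, replicate 3 against replicates 1 and 2 had a median log2 difference of -0.27 over the 44 genes (all genes 0.00), with 38 of 44 below 0. CycE was the 1 gene called, lower in replicate 3 (log2 difference -1.09 ± 0.22 SE, adjusted p = 0.0376, edgeR), where 0.595% of all genes were called, 0.26% higher and 0.335% lower. That share, 48 genes, rested on single libraries: it was 441 genes without knockdown replicate 3, 2 without SvbACT replicate 1 or SvbREP replicate 2, 4 without control replicate 2 or 3, 13 without SvbACT replicate 3 and 23 without SvbREP replicate 3. CycE was lowest in replicate 3 in all 4 groups. The call of CycE was lost without any 1 of 9 libraries (all but knockdown replicate 3, SvbACT replicate 2 and SvbREP replicate 1). The adjusted p then ran from 0.0518 to 0.236, the last without control replicate 3. dap showed no such difference (0.03 ± 0.18, adjusted p = 0.968), and RnrL (-0.88 ± 0.21, adjusted p = 0.0722) and Mcm10 (-1.47 ± 0.44, adjusted p = 0.159) had the next smallest p-values.

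Other genes of the cell cycle were read from lists written from general knowledge. Of 24 further replication genes, PolZ1, the catalytic subunit of translesion polymerase zeta, was higher under the knockdown label. It stood at 37.2, 37.4 and 44.1 CPM in control and 96.2, 93.25 and 88.0 CPM there (log2 fold change 1.23 ± 0.21 SE, adjusted p = 0.000941). In SvbACT it stood at 58.8, 63.9 and 67.8 CPM, also wholly above control (0.68 ± 0.21, adjusted p = 0.0787). Ctf4, which ties the helicase to polymerase alpha, was higher in SvbACT, at 28.65, 23.05 and 19.1 CPM against 8.74, 11.6 and 3.91 CPM in control (1.52 ± 0.38, adjusted p = 0.0273). Its level in SvbREP, 22.2, 23.1 and 23.35 CPM, was also wholly above control, just short of the threshold (1.47 ± 0.38, adjusted p = 0.0546), and SvbACT against SvbREP gave 0.05 ± 0.36 (adjusted p = 0.97). In each comparison the 1 gene called was 4.17% of the list, where 8.5% of all genes were called under the knockdown label and 4.46% in SvbACT. Called higher, as these genes were, were 1.85% and 1.91% of all genes. None of the 24 was called in SvbREP against control or between SvbACT and SvbREP. In each, 1 gene was at an unadjusted p under 0.05, beside 1043 and 1554 of all 8069 genes. In replicate 3 timeout was lower (-0.76 ± 0.16, adjusted p = 0.0465). Of 15 nucleotide supply genes none was called in any group comparison by edgeR. In each, 2 or 3 were at an unadjusted p under 0.05, beside 1043 to 1554 of all 8069 genes.

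Of the further G1/S and endocycle regulators, 24 genes, all those called were higher. Under the knockdown label 1 was called (4.17%), beside 8.5% of all genes called and 1.85% called higher. In SvbACT 1 was called (4.17%), beside 4.46% of all genes called and 1.91% called higher. Between SvbACT and SvbREP 2 were called (8.33%), beside 7.21% of all genes called and 3.53% called higher. The checkpoint kinase tefu (fly ATM) was higher under the knockdown label (0.79 ± 0.21, adjusted p = 0.028) and the checkpoint kinase lok (fly Chk2) in SvbACT (1.07 ± 0.27, adjusted p = 0.0293). lok was also higher in SvbACT than in SvbREP (1.04 ± 0.27, adjusted p = 0.0239). stg, the Cdc25 phosphatase that starts mitosis and is shut off in endocycling fly cells, stood at 96.2, 38.0 and 13.1 CPM in SvbACT and at 5.47, 7.96 and 2.80 CPM in SvbREP (3.10 ± 0.63, adjusted p = 0.00691). Its control libraries held 8.99, 15.1 and 6.70 CPM and overlapped both forms' ranges at their edges. None was called in SvbREP against control (1 at an unadjusted p under 0.05, beside 1043 of all 8069 genes).

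Of 43 mitosis genes, 1 (2.33%) rose under the knockdown label, beside 8.5% of all genes called and 1.85% called higher. It was Incenp, a chromosomal passenger protein (1.195 ± 0.32, adjusted p = 0.025). In SvbACT 4 (9.3%) rose, beside 4.46% of all genes called and 1.91% called higher. They were the condensin subunits glu (1.03 ± 0.25) and barr (0.98 ± 0.23), the spindle factor mud (1.33 ± 0.35) and the microtubule polymerase msps (0.78 ± 0.17). Their adjusted p ran from 0.0134 to 0.041. None was called in SvbREP against control (11 of 43 at an unadjusted p under 0.05, beside 1043 of all 8069 genes). msps was higher in SvbACT than in SvbREP (0.93 ± 0.17, adjusted p = 0.00211). The median log2 fold change of the mitosis genes against control was 0.66, 0.84 and 0.59, beside 0.40, 0.38 and 0.50 for the replication genes. Their summed level was 1601, 1925 and 1418 CPM in control. It was 2037, 2108 and 1982 CPM under the knockdown label and 2850, 2476 and 2372 CPM in SvbACT, both wholly above control, and 2233, 2565 and 1544 CPM in SvbREP, which overlapped it. In replicate 3 feo and asp, both spindle genes, were lower, and the median of the list was -0.57.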

How the data were processed

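RNA of sorted cells was sequenced as single reads after amplification with a low-input kit, per the labels' protocols. FastQC 0.11.5, STAR 2.5.2b, HTSeq 0.6.0, edgeR and the build dm6 are named in the submitters' processing notes, while options and the use of strand are not given in the sources used here. The authors deposited raw counts for each gene in 12 libraries, as whole numbers. The log2 fold changes, p-values and score of calls that the authors deposited beside the counts were not used for any result.

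The fits used edgeR 4.0.16 under R 4.3.3, with filterByExpr by group (8069 genes kept of 8802), TMM scaling, 1 mean per group over all 12 libraries, robust quasi-likelihood F tests, and Benjamini-Hochberg adjustment over the 8069 genes at 0.05. The SE was the log2 fold change divided by the square root of F. Level comparisons between genes used CPM per kilobase of exon (BDGP6.54, Ensembl 115). The biological coefficient of variation was 34.6%. Totals ran from 2186283 to 7444253 counts. The level of 3 counts covers counting error only, since no removal of PCR copies is stated. Replicates are separate collections on different days per the labels, which do not say that a number is one day in every group. Deviations from the group mean, compared between libraries of the same number, correlated at 0.175, 0.108 and 0.256 between SvbREP and control, all over 0.1, so these numbers were taken to pair the libraries. In the other comparisons at least 1 pair was not over 0.1. The block fits a replicate effect shared by all groups, so it is not a paired test of the compared groups. It is given only as an alternative. The pairing of SvbREP with control is thus left out of the main fit, and no paired test of these groups alone was run. Members, role lists, further lists and the named genes were chosen with earlier results of these data known. By rule, values in every library are given for members called, for a list of members set by role (Mcm2, Mcm5, Cdc6, dup, geminin, PCNA, RnrL, RnrS, PolA1, PolE1, Psf1, RPA1, Fen1, CycE, dap, E2f1, E2f2 and Caf1-180), and for those of highest and lowest level per kilobase; further list genes are named where called. Orc2, Cdk2, Dp, PolA2, DNAlig1, Mcm7 and Mcm10 were singled out after their values were seen. The pipeline was checked on simulated counts. No sequence was used here. Symbols were matched for 8686 of 8802 genes. Alternatives were RLE scaling, no filter, DESeq2 1.42.0, no robust estimation, scaling without the 50 most abundant genes, the compared groups alone, the replicate block and each library left out.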

Additional observations from a re-analysis of the deposited data

How the results depend on the processing

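The number of replication genes called was 2 under the knockdown label, 0 in SvbACT and 0 in SvbREP against control, 1 between SvbACT and SvbREP and 1 for replicate 3. DESeq2 called 2 in SvbACT, 4 in SvbREP and 3 for replicate 3. A fit to the compared groups alone called 0 between SvbACT and SvbREP and 3 under the knockdown label (RfC4, RPA1 and DNAlig1). With the replicate block the counts were 1 in SvbACT, 3 in SvbREP and 2 between SvbACT and SvbREP (dap and CycE), and it changed no other count by over 1.5 times. Under the knockdown label, where numbers were not taken as pairs, 3 genes passed (RfC4, RPA1 and RnrL) and each knockdown library correlated best with the control of its own number, as a hint from the data. Leaving out libraries gave 0 to 2 genes under the knockdown label, 0 to 1 in SvbACT, 0 to 2 in SvbREP, 0 to 1 between SvbACT and SvbREP and 0 to 3 for replicate 3. The cause of these shifts was not tested. Over all genes, the compared groups alone gave 1091 calls under the knockdown label (686 with all 12 libraries) and 340 between SvbACT and SvbREP (582). DESeq2 gave 616 in SvbACT (360), 321 in SvbREP (168) and 230 for replicate 3 (48), and the block gave 290 in SvbREP. Leaving out libraries gave 282 to 932 calls over all genes under the knockdown label, 97 to 509 in SvbACT, 17 to 242 in SvbREP, 183 to 599 between SvbACT and SvbREP (each lowest without the libraries numbered 2) and 2 to 441 for replicate 3. No direction reversed among the calls. The median of the 44 genes kept its sign under every alternative except SvbACT against SvbREP without the libraries numbered 2. Depth limits the low end: 13 genes had under 10 counts in a library.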
